A study of Mus musculus with 96 samples.

Results

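Gata6+ Pou5f1-low cells are the mouse embryonic stem (ES) cells in which the endoderm regulator Gata6 was present and the pluripotency gene Pou5f1 (Oct4) nearly absent, and they were set against naive cells without Gata6. The cells were chosen by their own readout: reads of the 2 sequencing lanes were summed per cell, a cell with a Gata6 level of at least 20 counts per 1000000 (CPM) and fewer than 10 Pou5f1 reads was taken as Gata6+ Pou5f1-low, and a cell with a Gata6 level under 20 CPM as naive. This gave 5 Gata6+ Pou5f1-low cells and 35 naive cells, 40 of 48 cells and 80 of 96 lane libraries. The other 8 cells had both genes and enter no comparison. Every cell was a J1 ES cell at passage 12 to 20, grown without feeders in fetal bovine serum with leukaemia inhibitory factor (LIF), a cytokine that sustains pluripotency. Single cells were captured on a Fluidigm C1 chip, their cDNA was made there with SMARTer chemistry, and Illumina HiSeq runs read the Nextera XT libraries. No cell had a genotype or treatment of its own, and the labels name no separate cultures, so all cells form 1 sample. No test was therefore made and no p-value is given: levels are given cell by cell for the 5 cells and as the range and median of the 35, a spread between cells that says nothing of other cultures.

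Primitive endoderm is the extraembryonic layer that separates from the epiblast inside the blastocyst. FGF signalling and the factors Gata6, Gata4, Sox17 and Sox7 establish it, while Nanog, Sox2 and Pou5f1 keep the epiblast pluripotent. Its descendants are parietal endoderm, which lays down the thick basement membrane of type IV collagen and laminin called Reichert's membrane, and visceral endoderm, which takes up and secretes nutrients and plasma proteins. ES cells kept in serum are known to be heterogeneous and to form such cells at times.

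Cells 3, 22, 25, 32 and 38, as numbered in the labels, were Gata6+ Pou5f1-low, and values of the 5 cells are given in that order throughout. Their Gata6 levels, which chose them, were 390, 499.9, 357, 401 and 617 CPM, and their Pou5f1 reads were 2, 0, 0, 4 and 2. The highest Gata6 level in a naive cell was 1.36 CPM, and the lowest in any of the 13 Gata6-positive cells was 82.8 CPM in cell 27, so no cell lay near the Gata6 threshold. On the Pou5f1 side, the nearest cell outside was cell 33 with 37 reads, and naive cells had 20 to 1350 Pou5f1 reads. Gata6 and Pou5f1 are left out of everything below.

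The endoderm label was met by all 5 cells, and the name endoderm-only was not. Col4a1, a chain of type IV collagen, and Dab2, an adaptor of endocytosis, lay above every naive cell in all 5. Over 36 core and naive pluripotency genes, the median level in cells 3, 22, 25 and 38 was 0.336%, 0.474%, 1.19% and 1.12% of the mean of naive cells. Not every gene of the list was low in them: 6, 7, 11 and 9 of the 36 were at 25% or more of the naive mean, among them Sall4, at 7222 CPM in cell 3. In cell 32 the median was 42.3%, at the low end of the 31.3% to 119% of single naive cells. The middle naive cell was at 86.9%, and cell 11 alone of the naive cells lay below cell 32. The other Gata6-positive cells, which enter no comparison, had 0.330% (cell 33) to 68.7% (cell 2), with 42.0% in cell 27. Cell 32 held 39.9 CPM of Nanog, 985 CPM of the Nodal co-receptor Tdgf1 and 857 CPM of Zfp42 (Rex1), with 4 Pou5f1 reads. Other naive genes were near 0 there too, with 0.348 CPM of Dppa3 and 0.232 CPM of Tcl1. Its summed level of 16 parietal endoderm genes, 23138 CPM, lay between those of the other 4 cells. Cell 33, just outside the Pou5f1 threshold, had a pluripotency median of 0.330%. Cell 32 was noticed after its values were seen, and results that rest on it are given with and without it.

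**Figure D1:**
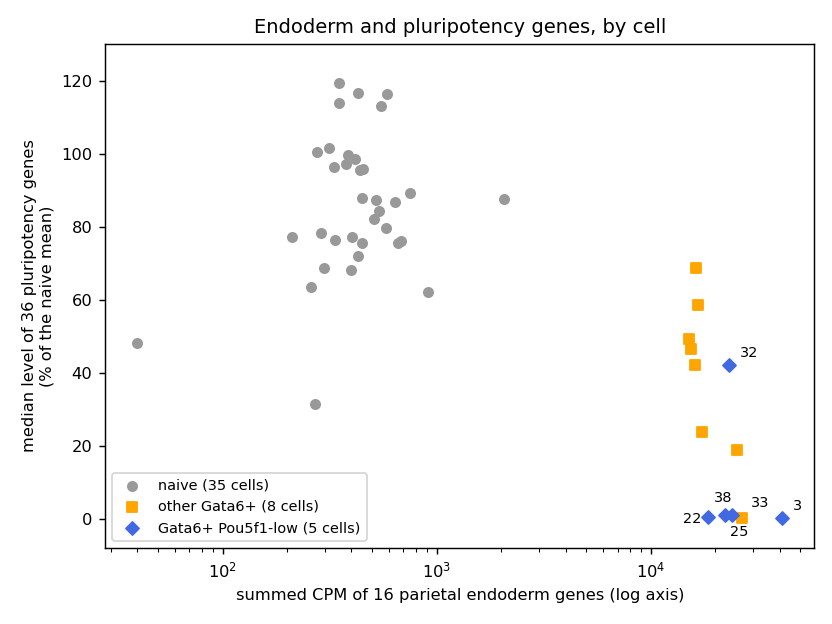
Each point is 1 of 48 cells: the x axis (log scale) is the summed CPM of 16 parietal endoderm genes and the y axis the median level of 36 pluripotency genes as a percent of the naive mean. Gata6+ Pou5f1-low cells are diamonds with their numbers; 4 of them lie near 0% and cell 32 at 42.3%, and cell 33 is the square near 0%.

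Summed over lanes, a Gata6+ Pou5f1-low cell had 7385191 to 8619705 reads in genes and a naive cell 4408953 to 9767245. After each cell was thinned to 4408953 reads, 6141, 6207, 6931, 7761 and 6371 genes had at least 5 reads in the 5 cells. Naive cells had 6118 to 8843 such genes, with a median of 7380, against 6371 for the Gata6+ Pou5f1-low cells, and the ranges overlapped. Without thinning the medians were 6751 and 7633. At these depths a level of 1 CPM is about 4 to 10 reads.

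Genes were compared where the cells averaged 10 or more reads. Of 11656 such genes, 994 (8.53%) had a mean CPM at least 4-fold higher in Gata6+ Pou5f1-low cells and 2595 (22.3%) at least 4-fold lower, on the scale of log2(mean CPM + 1). This fold call is a size, not a test, and the counts of each gene list below are to be read beside these shares of all compared genes. Many lower genes were low throughout: 62.3% had a naive mean under 20 CPM, and 575 had no read in any of the 5 cells. The median log2 difference (Gata6+ Pou5f1-low minus naive) over all genes was -0.50, and with edgeR's TMMwsp scaling it was -0.31, a shift of 0.19. Higher genes made up 27.7% of the calls. That share was 32.9% with TMMwsp scaling, 43.1% for differences of mean log2 values, 43.0% for differences of medians, 50.6% with a pseudocount of 10 CPM, 39.9% against only the 7 naive cells with 0 Gata6 reads, and 44.5% after centring on the median of all genes. Without cell 32, 989 genes were higher and 3219 lower, with a median of -0.69.

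A stricter count asked that the cells did not overlap. In 51 of the genes 4-fold higher by mean (0.438% of those compared) all 5 cells lay above all 35 naive cells. In 19 of the 4-fold lower genes (0.163%) all 5 lay below them. With 2-fold in place of 4-fold the counts were 55 and 21. Without cell 32 the counts at 4-fold were 62 and 60, of which 50 and 19 were shared with the counts over 5 cells. Without cell 22 the first count was 80. Genes that left overlap only once cell 32 was removed included the pluripotency genes Sox2, Nanog, Tdgf1, Gdf3, Fgf4 and Tet1 on the lower side and Sox7, Lrp2 and Bmp2 on the higher side. The cells were chosen on Gata6 and Pou5f1 in these same libraries, so genes that vary together with them had to differ, and none of these counts supports the choice.

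**Figure D2:**
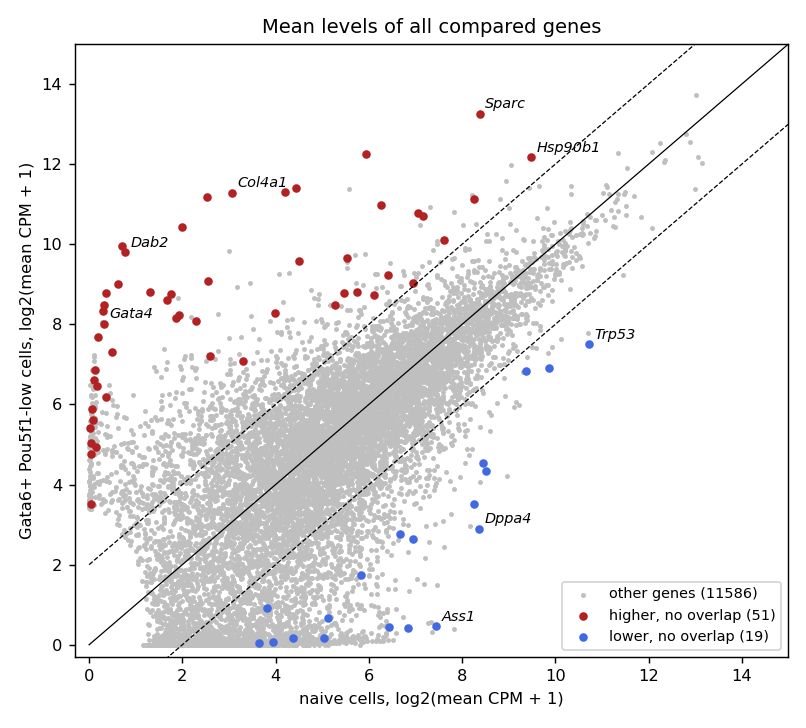
Each point is 1 of 11656 genes, with log2(mean CPM + 1) of 35 naive cells on the x axis and of 5 Gata6+ Pou5f1-low cells on the y axis; the solid line marks equal levels and the dashed lines 4-fold. The 51 genes 4-fold higher and above every naive cell (red) lie mostly at the upper left. The 19 genes 4-fold lower and below every naive cell (blue) lie at the lower right.

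The largest differences without overlap belonged to matrix, endocytic and coagulation genes. Srgn, the core protein of the proteoglycan serglycin, stood at 452, 182, 159.8, 1837 and 2336 CPM, against 0 to 3.18 CPM (median 0.335 CPM) in naive cells, a log2 difference of 9.24. Dab2 followed with 186, 527, 843, 109.8 and 2779 CPM, while naive cells had 0 to 2.52 CPM (median 0.539 CPM), a log2 difference of 9.02. F3, tissue factor, which starts coagulation, had 4305, 800, 1774, 4105 and 577 CPM and a naive range of 0.156 to 39.9 CPM (median 1.68 CPM), a log2 difference of 8.65. In all 3 genes the lowest of the 5 cells was over 10 times the highest naive cell. The sums behind these means were 37158 Dab2 reads in 5 cells (exact Poisson interval 36781 to 37538) and 165 in 35 naive cells (141 to 192); such intervals cover counting error only, since reads carried no molecular identifiers and can repeat a molecule.

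Dab2 had at least 5 reads in 5 of 5 thinned Gata6+ Pou5f1-low cells (exact Clopper-Pearson 95% interval 47.8% to 100%) and in 6 of 35 naive cells (17.1%, interval 6.56% to 33.6%). Such intervals treat cells as independent draws. These cells were chosen by their own readout from 1 sample, so the intervals are no comparison of the groups. Hs3st1, a heparan sulfate sulfotransferase, was even across the cells at 664, 469.7, 325, 289 and 447 CPM, with 0 to 1.49 CPM (median 0.142 CPM) in naive cells. Nxf7, a member of the mRNA export factor family, had 503, 659, 251, 279 and 86.7 CPM and a naive range of 0 to 1.95 CPM (median 0.129 CPM). Of the next genes by size, Glipr1, Runx1, a transcription factor of blood formation, Pla2g12b, a secreted phospholipase-like protein, and Fam134b, a receptor for autophagy of the endoplasmic reticulum, had log2 differences of 7.51, 6.83, 6.73 and 6.93. Runx1 stood at 339.7, 62.0, 38.4, 140 and 207 CPM with no more than 9.46 CPM in any naive cell.

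**Figure D3:**
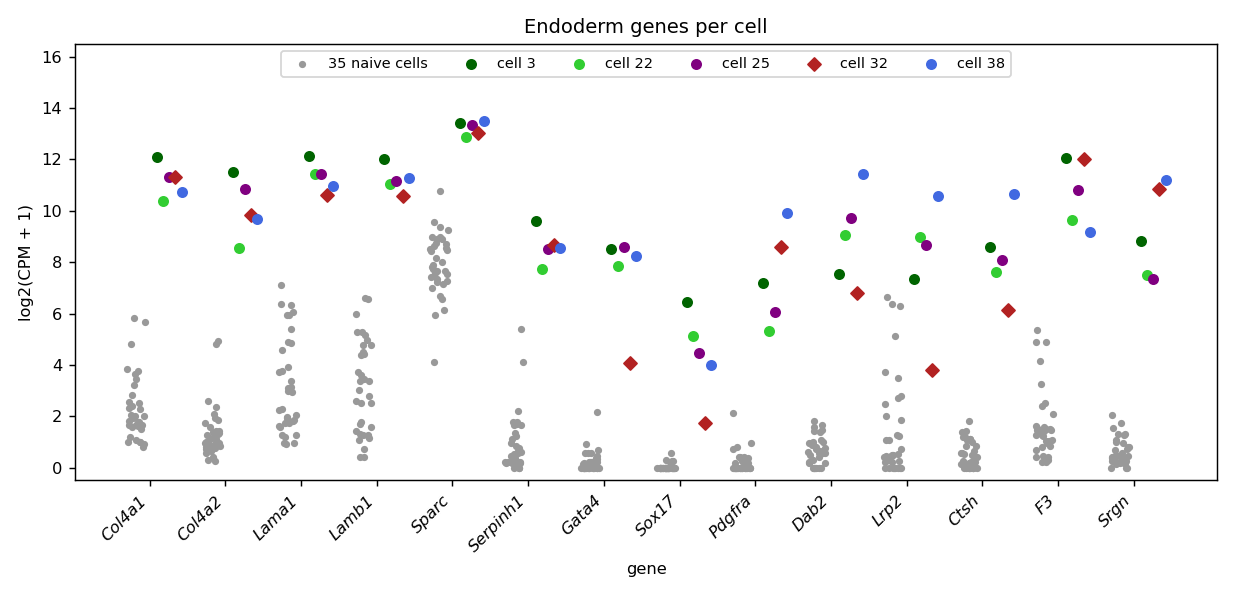
Levels of 14 endoderm genes as log2(CPM + 1) on the y axis, gene by gene on the x axis: grey points are the 35 naive cells and coloured points the 5 Gata6+ Pou5f1-low cells, cell 32 as a diamond. Every coloured point lies above the grey ones except for Lrp2 in cell 32, and cell 32 is the lowest of the 5 for Lama1, Lamb1, Gata4, Sox17, Dab2, Lrp2 and Ctsh.

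Promoters of these genes were searched for the letters that GATA factors bind, because the cells were chosen on a GATA factor. The word AGATAA, also with T as its first letter or G as its last, was looked for on both strands in the 250 bases before the most 5′ start of each gene in the RefSeq promoter table (GRCm38.p6). Of the 51 genes above all naive cells, 36 had a promoter in the table and 5 of them (13.9%) held a word, against 16.2% of the 8343 promoters of compared genes and 27.1% of all 27025 promoters. The octamer ATGCAAAT, the word of Pou5f1, was in 0 of 36 of those promoters and in 0 of 10 promoters of the genes below all naive cells, against 1.34% of compared genes. A match is a description of letters, not a binding site, and no match says only that the letters are not in this window. Windows of 3 of the 5 genes are shown for their gene's rank among the 51, with the word or its reverse complement in capitals, 5′ to 3′ on the gene's strand: Dab2 at chr15:6299539-6299788 (plus strand), Nxf7 at chrX:135598782-135599031 (minus strand) and Cd44, a hyaluronan receptor, at chr2:102901666-102901915 (minus strand).
Dab2: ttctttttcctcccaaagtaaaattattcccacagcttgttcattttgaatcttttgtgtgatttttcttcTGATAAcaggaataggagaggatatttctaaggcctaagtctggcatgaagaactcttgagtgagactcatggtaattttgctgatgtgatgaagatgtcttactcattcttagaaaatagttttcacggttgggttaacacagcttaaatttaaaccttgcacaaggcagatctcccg
Nxf7: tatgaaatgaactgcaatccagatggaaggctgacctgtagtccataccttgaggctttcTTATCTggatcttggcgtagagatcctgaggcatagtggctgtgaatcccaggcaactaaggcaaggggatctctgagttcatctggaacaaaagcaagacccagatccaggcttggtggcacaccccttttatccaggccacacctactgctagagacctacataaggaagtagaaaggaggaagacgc
Cd44: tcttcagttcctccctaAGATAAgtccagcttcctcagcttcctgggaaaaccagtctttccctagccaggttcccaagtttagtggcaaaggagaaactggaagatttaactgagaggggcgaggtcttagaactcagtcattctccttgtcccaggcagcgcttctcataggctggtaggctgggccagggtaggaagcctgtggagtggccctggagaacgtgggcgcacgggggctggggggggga

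Regulators of primitive endoderm were the group that names the cells. Of 16 such genes other than Gata6, 14 were compared, 11 were at least 4-fold higher and 1 lower, with a median log2 difference of 4.93 (5.15 without cell 32). Gata4, the partner factor of Gata6, had 360.2, 228, 381, 16.0 and 301 CPM and at most 3.47 CPM in a naive cell. The Sox factor Sox17 had 86.0, 34.0, 21.0, 2.32 and 15.1 CPM against 0 to 0.469 CPM (median 0 CPM). Cell 32 was the lowest of the 5 for both. Sox7, which is expressed in parietal endoderm, had 97.7, 261, 29.7, 0 and 35.8 CPM: 4 cells lay above all naive cells (at most 0.326 CPM), and cell 32 had no read.

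Pdgfra, the receptor that marks primitive endoderm on the cell surface, reached 146, 39.0, 66.3, 386 and 957 CPM, with 0 to 3.39 CPM (median 0 CPM) in naive cells. Cited1, a transcriptional coactivator, had 169, 286, 61.0, 45.7 and 169 CPM, and Pth1r, the receptor for parathyroid hormone-related protein, 514, 19.2, 43.0, 269.5 and 173 CPM; neither overlapped with naive cells. Other regulators were high in some of the 5 cells only. Foxq1 had 0, 4.87, 28.4, 28.2 and 131 CPM, and Nr2f2 had 3.48, 104, 21.3, 17.8 and 0 CPM. Foxa2, a forkhead factor of endoderm, had 0, 20.9, 1.41, 20.6 and 13.8 CPM and no read in any naive cell, and its mean was at least 25.1-fold higher, taking a floor of 3 reads per naive library. Foxa1 and Hnf4a, factors of later endoderm, were below the count minimum, with no read of Foxa1 and at most 0.118 CPM of Hnf4a in the 5 cells. Sall4, which ES cells and primitive endoderm both use, was at 7222, 2261, 1806, 1206 and 1780.2 CPM against 1170.3 to 3881 CPM (median 1988 CPM), a log2 difference of 0.40, and within the naive range in all cells but cell 3.

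Basement membrane genes held a high set. Of 18 genes 17 were compared, 9 were at least 4-fold higher and 4 at least 4-fold lower, with a median of 2.51 (2.72 without cell 32). The lower share was close to the 22.3% of all compared genes. With a pseudocount of 10 CPM 1 gene was lower, and for differences of mean log2 values 2 were. The high set held the chains of type IV collagen and of laminin-111. Col4a1 had 4336, 1325, 2532, 2577 and 1704 CPM, against 0.76 to 55.8 CPM (median 2.82 CPM) in naive cells. Its partner chain Col4a2 had 2939, 370.5, 1866, 927 and 820 CPM, against 0.18 to 29.8 CPM (median 1.16 CPM); the genes lie head to head, and the libraries do not mark strand, so reads at their shared start cannot be told apart. Lama1, Lamb1 and Lamc1, the alpha, beta and gamma chains of laminin-111, had log2 differences of 6.97, 7.10 and 4.72.

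Lamc1 was present in naive cells (2.49 to 334 CPM, median 47.9 CPM), and its lowest Gata6+ Pou5f1-low value, 353 CPM in cell 32, was just above the highest naive cell. Sparc, a matrix protein that binds collagen IV, had 11121, 7434, 10517, 8289 and 11675 CPM, and 16.2 to 1729 CPM (median 238 CPM) in naive cells. Nid1, Hspg2 (perlecan) and Tinagl1 were higher by mean (log2 differences 3.15, 2.51 and 4.63) with overlap. Among the lower genes, fibronectin (Fn1) had 0.267, 15.0, 0.118, 56.7 and 1.29 CPM against 3.73 to 565 CPM (median 147 CPM). Collagen XVIII (Col18a1) had 0.134, 0.135, 0, 97.6 and 0.234 CPM against 0.313 to 411 CPM (median 84.6 CPM): its log2 difference was -2.33 with cell 32 and -6.53 without it. Smoc1 and Fbln1 were near 0 in the 5 cells (at most 0.464 CPM) and at 0 in some naive cells too. Lama5, Lamb2, Nid2 and Agrn stayed within 4-fold, at -1.54, 1.74, 1.19 and 0.88.

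Among enzymes that fold and modify collagen in the endoplasmic reticulum, 10 of the 15 compared were at least 4-fold higher and none lower, with a median of 2.50 (8 higher and 2.27 without cell 32). Serpinh1 (Hsp47), the chaperone of procollagen, had 787, 214, 368, 404 and 372 CPM against 0 to 40.8 CPM (median 0.423 CPM). The prolyl 4-hydroxylase subunits P4ha1 and P4ha2 had 1448, 632, 387, 411 and 934 CPM and 323, 404, 465, 1088 and 404 CPM, above all naive cells. Leprel1, a prolyl 3-hydroxylase, had 6.02, 247, 0, 12.6 and 98.0 CPM, with no more than 0.278 CPM in a naive cell, so cell 25 alone was at 0. Plod2, a lysyl hydroxylase, had 744, 657, 448, 288 and 193 CPM (naive cells 0 to 333 CPM, median 5.14 CPM). Crtap, Plod1, Ppib, Sec23a and Glt25d1 were within 4-fold.

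A wider list of 34 folding and translocation genes of the endoplasmic reticulum was drawn up after its genes had been seen to be high, so its count is a description of chosen genes. Of these, 14 were at least 4-fold higher and none lower, with a median of 1.85; without cell 32 these values were 10 and 1.45. Cell 32 had far more of the chaperones than the other 4 cells: Hspa5 (BiP) was at 1151, 1858, 653, 15494 and 1078 CPM, Hsp90b1 (GRP94) at 3229, 1724, 2711, 12177 and 3171 CPM and calreticulin (Calr) at 1240, 874, 1441, 9724 and 1962 CPM, against naive highs of 1403, 1521 and 1123 CPM. Without cell 32 the log2 differences of Hspa5 and Hsp90b1 were 1.17 and 1.92, under 4-fold, in place of 2.94 and 2.69. Ddit3 (CHOP), a factor induced by unfolded protein, was at 0, 0, 0, 189.8 and 0 CPM. The disulfide isomerase P4hb was also highest in cell 32, with 920.5, 2022, 1414, 5604 and 1321 CPM (log2 difference 2.32, and 1.65 without cell 32). Txndc12, a thioredoxin-like protein, and calumenin (Calu), a calcium-binding protein, lay above all naive cells, with 583, 226, 701, 368 and 1114 CPM and 1331, 579, 1499.5, 1214 and 852 CPM.

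Endocytic genes, which in endoderm serve the uptake of nutrients, were at least 4-fold higher in 5 of 10 compared genes of an 11-gene list and lower in none, with a median of 2.64 (2.74 without cell 32). Without the count minimum 6 of 11 were higher, with a median of 2.02. Lrp2 (megalin), a scavenger receptor, had 163, 501, 408, 13.0 and 1526 CPM against 0 to 97.9 CPM (median 0.41 CPM). Its partner Cubn (cubilin) was divided: 0, 254, 3.53, 0 and 1405 CPM, with at most 1.32 CPM in naive cells. Lrpap1, the chaperone of LRP receptors, had 1573, 782, 1188, 1029 and 3803 CPM, above the naive high of 420.2 CPM. Lgmn, a lysosomal protease, had 983, 84.6, 764, 163 and 2236 CPM and overlapped with naive cells (0.278 to 186 CPM, median 41.3 CPM). Amn, the anchor of cubilin, was below the count minimum and had reads in cell 38 alone of the 5, at 21.6 CPM. Igf2r, Cltb, Ap2a2 and Rab11fip5 were among the members within 4-fold.

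Of 18 lysosomal genes 17 were compared, 5 were higher and none lower, with a median of 1.11 (0.94 without cell 32, with 2 lower). By differences of mean log2 values 9 were higher, with a median of 2.07, and by medians 6 were higher and 3 lower. Cathepsin H (Ctsh) was at 388, 195, 271, 70.3 and 1632 CPM against 0 to 2.51 CPM (median 0.316 CPM). Cathepsin L (Ctsl) had 2194, 1169.6, 793, 2414 and 5506 CPM, against 36.6 to 1201 CPM (median 209 CPM), and the tetraspanin Cd63 had 2102, 1682, 1423, 1166 and 2580.4 CPM, against 1.71 to 1305 CPM (median 171 CPM). Lamp2 had 536, 0.135, 228, 103 and 215 CPM, with cell 22 near 0. Ctsb, Ctsd and Ctsz differed by 1.39, 0.03 and 1.59.

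Secreted and coagulation genes gave 9 higher and 2 lower among 16 compared of 19, with a median of 2.99 (3.18 without cell 32). Without the count minimum, which a gene can pass through the 5 cells alone, the median was 1.98 over 18 genes. Clusterin (Clu), a secreted chaperone, had 5699, 238, 5613, 2520.4 and 10454 CPM against 0.188 to 226 CPM (median 19.9 CPM), the lowest value being only just above the naive high. Thrombomodulin (Thbd), an anticoagulant receptor, had 537, 0.135, 217, 0 and 0 CPM, and tissue plasminogen activator (Plat) 49.3, 26.1, 174, 0 and 0 CPM: cells 32 and 38 had no read of either. Follistatin (Fst), which binds activin, had 293, 94.8, 0.235, 191 and 0 CPM. Cystatin C (Cst3) had 523, 265, 438, 377 and 1416 CPM against 0.645 to 392 CPM (median 105 CPM). Serpine2, a protease inhibitor, was lower by mean, with 0.134, 20.6, 13.4, 1.04 and 10.3 CPM against 0 to 476 CPM (median 1.01 CPM). Of the 5 cells only cell 3 lay below that naive median, so the lower mean rests on naive cells far above it. By differences of medians the list had 9 higher and 0 lower members. Transferrin (Trf) had no read in the 5 cells and 0 to 97.3 CPM (median 0 CPM) in naive cells; its mean was at least 11.4-fold lower at a floor of 3 reads per library.

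The markers of the endoderm's descendants differed in how much of each list was present. All 16 parietal endoderm genes were compared and at least 4-fold higher, 8 of them above every naive cell, with a median log2 difference of 6.38 (6.60 without cell 32, again 16 of 16). Podoplanin (Pdpn), a surface glycoprotein, had 7342, 3089, 1102, 1697 and 41.1 CPM, so cell 38 lay inside the naive range of 0.156 to 177 CPM (median 17.0 CPM). Snai1, a repressor of epithelial genes, had 107, 0.271, 0.235, 27.7 and 0 CPM, and vimentin (Vim) 175, 0, 342, 61.3 and 355 CPM. Stra6, a retinol transporter, had 0, 275, 0, 0 and 0 CPM, which puts its difference in cell 22 alone. The list holds genes already given above (Sparc, Srgn, F3, Pth1r, Thbd, Plat, Fst and the collagen and laminin chains).

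Of 16 visceral endoderm genes only 7 passed the count minimum, which a gene can do through 1 high cell; 4 were higher and 1 lower. The plasma protein genes Ttr, Apob and Apoa4 and the genes Cer1 and Ihh had no read in any of the 5 cells. Alpha-fetoprotein (Afp) had 0, 72.7, 0, 0 and 0 CPM, reads in cell 22 alone; without that cell its log2 difference was -0.015. Spink3, a trypsin inhibitor, had 19.1, 73.7, 212, 0.232 and 1700 CPM, and Bmp2, a ligand made by visceral endoderm, 103, 9.61, 5.17, 1.04 and 47.4 CPM. The summed level of the visceral genes was 22.2 to 3174 CPM in the 5 cells, highest in cell 38, and 0 to 118 CPM in naive cells.

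Keratins and vimentin form intermediate filaments, and annexins bind membranes. Of 17 such genes, all compared, 7 were higher and 4 lower, with a median of 1.79 (8 higher and 1.96 without cell 32). Krt8 and Krt18, partners in the filaments of simple epithelia, had 718, 352, 282, 178 and 444 CPM and 724, 443, 1394, 395 and 785 CPM; the medians of naive cells were 0.571 and 8.46 CPM, with highs of 739 and 621 CPM in single cells. Annexin A5 (Anxa5) had 839, 0.271, 848, 619 and 734 CPM, high in 4 cells and near 0 in cell 22, against 0 to 143 CPM (median 0.473 CPM). Annexin A3 (Anxa3) had 695, 190.4, 650, 151 and 197 CPM. Annexin A1 (Anxa1) was near 0 in all 5 (at most 0.406 CPM), as it was in most naive cells, whose median was 0 CPM and high 663 CPM.

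Actin and contractility genes gave 9 higher and 1 lower of 16, with a median of 2.27 (8 higher and 2.17 without cell 32, but 5 higher and 1.47 without cell 3). Targets of the YAP coactivator were among them: Ankrd1 had 86.1, 5.42, 213, 46.3 and 10.4 CPM (naive high 1.41 CPM), Ctgf 53.7, 0.812, 911, 186 and 16.3 CPM and Cyr61 686, 148, 278, 287 and 70.9 CPM. Transgelin (Tagln), a smooth muscle protein, was high in cell 3 alone: 2340.2, 11.2, 67.7, 0.232 and 0.117 CPM. Smooth muscle actin (Acta2) was near 0 in all 5 (at most 1.53 CPM), with a log2 difference of -2.50 that rests on single naive cells of up to 151 CPM against a naive median of 0.712 CPM.

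Among junction genes 1 of 14 compared was higher and 5 lower, with a median of -1.44 (4 lower and -1.29 without cell 32). E-cadherin (Cdh1) had 1.20, 8.53, 0.47, 75.8 and 175 CPM against 83.7 to 1061 CPM (median 336 CPM); cell 38 was inside the naive range and cell 32 just below it. Claudin-6 (Cldn6) was higher, at 376, 978, 653, 2.32 and 1189 CPM, in all cells but cell 32. Matrix receptors were divided, with 4 higher and 4 lower of 15 and a median of 0.92 (-0.13 without cell 38, 0.46 with 3 higher without cell 3, and 1.07 with 5 lower without cell 32; 0.47 with 2 lower for differences of mean log2 values). Cd44, whose promoter is shown above, had 140.2, 129, 14.2, 200 and 1.87 CPM and no more than 0.341 CPM in a naive cell. The fibronectin receptor chain Itga5 had 9.22, 0, 229, 11.1 and 38.3 CPM, and the glypican Gpc3 173, 993, 63.2, 33.9 and 384 CPM. Dystroglycan (Dag1), a laminin receptor, was near 0 in the 5 cells (0.134, 0, 3.88, 0.232 and 0.234 CPM) against 0 to 177 CPM (median 42.2 CPM), as was the laminin receptor chain Itga6 in 3 of them (79.0, 0.406, 0.235, 13.8 and 0.117 CPM).

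Pluripotency genes were lower, and how clearly depended on cell 32. Of 16 core genes 11 were at least 4-fold lower and none higher, with a median of -2.27; without cell 32 these values were 12 and -3.25. Of 20 naive genes 14 were lower and none higher, with a median of -2.69; without cell 32 they were 14 and -3.89. Dppa4, a chromatin protein of ES cells, had 0.668, 0.812, 0.235, 29.4 and 1.17 CPM, below every naive cell (111 to 765 CPM, median 298 CPM). Utf1, another chromatin factor of undifferentiated cells, had 0.936, 1.22, 24.9, 82.8 and 0.468 CPM and also did not overlap (naive low 152 CPM). Sox2 had 0.267, 0.677, 0, 17.3 and 0.468 CPM against 8.48 to 205 CPM (median 82.8 CPM), and Nanog 0.401, 1.22, 1.06, 39.9 and 0.468 CPM against 1.47 to 162 CPM (median 39.6 CPM); in both genes only cell 32 reached the naive range. Tdgf1 had 3.74, 1.49, 0.94, 985 and 3.51 CPM, its 4 low cells near 0 and cell 32 close to the naive median of 1089.8 CPM.

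Esrrb, a nuclear receptor of the naive state, had 0.267, 0.271, 0.235, 36.0 and 0.702 CPM, and Klf2 had 0, 0, 0, 19.1 and 0.117 CPM. Dppa3 (Stella) and Tcl1 were near 0 in all 5 cells, including cell 32, with log2 differences of -7.44 and -7.05; both were also near 0 in some naive cells. Nr0b1 (Dax1) and Fgf4 had -6.14 and -5.69. Zfp42 had 2.54, 11.0, 10.9, 857 and 209.6 CPM, with cells 32 and 38 inside the naive range of 102 to 3769.7 CPM (median 1537 CPM). Dppa5a remained at 346, 276, 90.0, 1337 and 937 CPM against 266 to 6966 CPM (median 2837 CPM). Of 36 pluripotency genes 26 had a read in every naive cell, and cell 32 was at or above the lowest naive value in 22 of them, the other 4 cells in 12 or 13. Genes of the primed epiblast, the later pluripotent state, gave 6 lower and 1 higher (Cldn6) of 12, with a median of -1.72, or -1.88 with genes at 0 taken at their bound (7 lower and -2.09 without cell 32). That median was -0.73 for differences of mean log2 values, -0.0069 by medians and -0.45, with 3 lower, against the 7 naive cells with 0 Gata6 reads. Dnmt3a had 0.535, 0, 0.118, 15.4 and 3.63 CPM, and Fgf5 had no read in the 5 cells, at least 8.24-fold below the naive mean of 3.06 CPM.

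**Figure D4:**
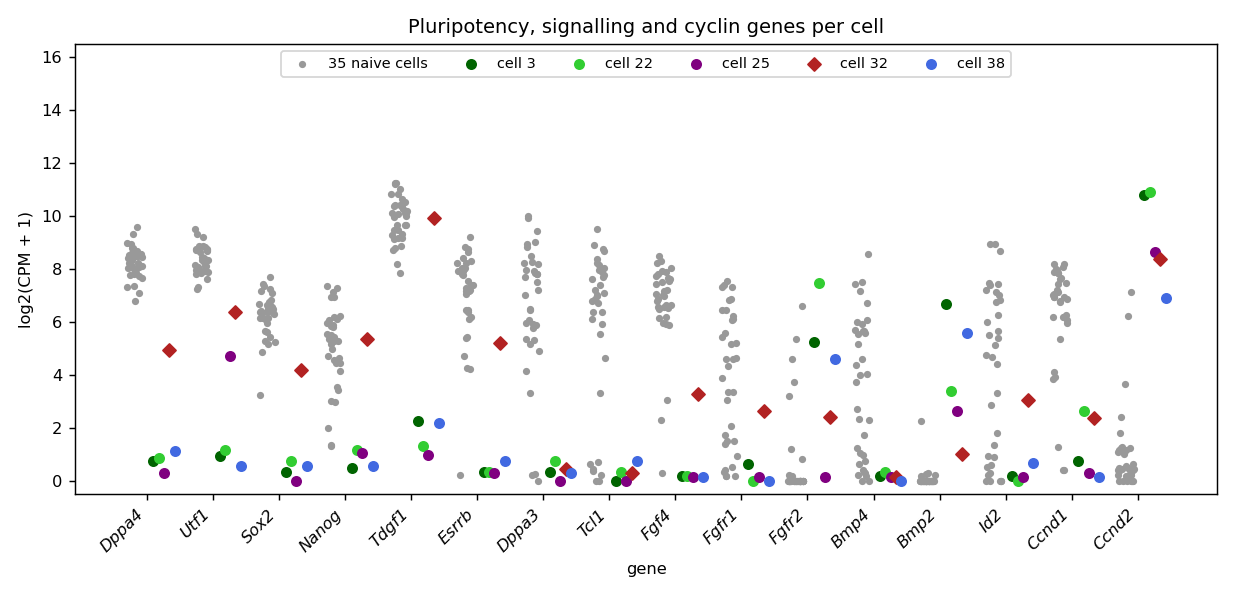
Levels of 16 pluripotency, signalling and cyclin genes as log2(CPM + 1) on the y axis, gene by gene on the x axis, with 35 naive cells in grey and the 5 Gata6+ Pou5f1-low cells in colour. Cell 32 (diamond) sits among or near the naive cells for Nanog, Tdgf1, Esrrb and Sox2 and near 0 for Dppa3, Tcl1 and Bmp4; Ccnd1 is low and Ccnd2 high in all 5 cells.

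The 4-fold lower genes that lay below every naive cell in all 5 cells, cell 32 included, were few. Ass1, the argininosuccinate synthase of arginine synthesis, had 0, 0.812, 0.353, 0.232 and 0.468 CPM against 17.9 to 912 CPM (median 122 CPM): 15 reads in all in 5 cells (exact Poisson interval 8.40 to 24.7) and 44662 in 35. Socs2, a suppressor of cytokine signalling, had 0, 0.271, 0.353, 0.812 and 0.234 CPM against 1.52 to 514 CPM (median 74.3 CPM). The noncoding RNA Snhg11 had 0.267, 0, 0.47, 0.232 and 0.819 CPM against 2.11 to 252 CPM (median 80.1 CPM), and the immediate early gene Ier2 at most 0.351 CPM against 1.54 to 111 CPM (median 26.1 CPM). Phc1, a subunit of Polycomb repressive complex 1, had 16.0, 0.677, 0, 34.8 and 0.468 CPM (naive low 51.9 CPM). The tumour suppressor Trp53 had 6.82, 296, 14.5, 208 and 373 CPM against 785 to 2752 CPM (median 1647 CPM), and Dpy30, a subunit of histone H3K4 methyltransferase complexes, 80.2, 15.8, 129, 274 and 69.8 CPM against 312 to 1063 CPM (median 614 CPM).

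Of these 19 genes, 8 were zinc finger genes with provisional names or close relatives. A list of 14 such genes, drawn up after their values were seen, had 12 compared, of which 10 were at least 4-fold lower and 8 without overlap, with a median of -3.89 (-4.33 and 10 without overlap if cell 32 is left out). Gm13154 had 1.60, 3.52, 0.823, 50.4 and 40.6 CPM against 96.0 to 859.6 CPM (median 318 CPM), Gm13242 0, 1.49, 0.705, 24.6 and 2.11 CPM against 40.6 to 171 CPM (median 109 CPM), and Zfp534 0.267, 5.69, 0.353, 4.18 and 1.29 CPM against 6.08 to 123 CPM (median 51.2 CPM). These genes belong to families of closely related copies, and how reads that match several copies were counted is not given in the sources used here, so the values of single copies are uncertain.

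FGF pathway genes differed in both directions. Of 19 genes, all compared, 5 were higher and 6 lower, beside 8.53% and 22.3% of all compared genes, with a median of -0.64 (-0.56 without cell 32). The higher count was 3 without cell 22, 2 by medians and 1 with a pseudocount of 10 CPM. Among ligands, Fgf4, which ES cells secrete, had 0.134, 0.135, 0.118, 8.70 and 0.117 CPM against 0.224 to 363 CPM (median 128 CPM), while Fgf3 had 0.134, 0, 3.64, 58.7 and 97.1 CPM with a naive high of 11.1 CPM. Among receptors, Fgfr1 had 0.535, 0, 0.118, 5.22 and 0 CPM against 0.124 to 188 CPM (median 23.5 CPM). Fgfr2, known from primitive endoderm, had 36.9, 175, 0.118, 4.29 and 23.5 CPM against 0 to 97.0 CPM (median 0 CPM), Fgfr3 had 0.267, 0, 147, 39.1 and 0.117 CPM, and Fgfr4 16.6, 0, 0, 0 and 92.5 CPM: each was high in some of the 5 cells and near 0 in others, and cells 25 and 32 alone held over 30 CPM of Fgfr3. Among targets and inhibitors of the pathway, Etv4, Etv5, Spry1 and Spred2 were lower. Etv4 and Spry1 had no read in the 5 cells, at least 66.7-fold and 36.6-fold below naive means of 24.8 and 13.6 CPM, and Etv5 had 17.0, 0.677, 8.11, 73.7 and 29.5 CPM against 10.9 to 639.8 CPM (median 243 CPM).

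BMP pathway genes likewise gave 4 higher and 5 lower of 11 compared (median 1.27, but -1.54 without cell 3, -0.21 without cell 22 and 1.08 without cell 32). Without the count minimum the median was 0.45 over 12 genes. The ligands were reversed: Bmp4 was near 0 in all 5 cells (at most 0.271 CPM) against 0 to 374 CPM (median 14.8 CPM), and Bmp2 was at 103, 9.61, 5.17, 1.04 and 47.4 CPM, with at most 3.76 CPM in a naive cell. Of the receptors, Bmpr2 had 137, 34.4, 1.18, 0 and 38.0 CPM and Acvr1 70.7, 0, 0, 0.464 and 0 CPM. The targets Id1, Id2 and Id3 had log2 differences of -3.11, -5.02 and -4.25; some naive cells were also at 0 for each. Nodal pathway genes gave 1 higher (Furin, 2.02) and 6 lower of 15, with a median of -1.06 (8 lower and -2.15 without cell 32). Nodal itself had at most 0.232 CPM against 0 to 151 CPM (median 8.41 CPM), its convertase Pcsk6 at most 0.348 CPM, and the ligand Gdf3 0.535, 0.271, 0.118, 93.3 and 0.468 CPM against 4.24 to 461 CPM (median 211 CPM).

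In the LIF pathway 2 of 13 genes were higher and 3 lower, beside 8.53% and 22.3% of all compared genes, with a median of 0.28 (0.45 without cell 32). The LIF receptor Lifr had 2026, 0.677, 1237, 289 and 1072 CPM against 0.925 to 911 CPM (median 120.4 CPM), high in 3 cells. The kinase Jak2 had 18.0, 71.1, 7.29, 0 and 0 CPM. The STAT3 target Tfcp2l1 had 4.01, 3.79, 175, 0.232 and 13.1 CPM against 0.308 to 1176 CPM (median 289 CPM). Of 14 WNT pathway genes 8 were compared: Tcf7l2, a nuclear effector, had 1694, 619, 432, 981 and 330 CPM and lay above all naive cells (high 239 CPM), whereas its relatives Lef1, with no read in the 5 cells (at least 26.6-fold lower), and Tcf7, at 0.134, 26.3, 0, 0 and 0 CPM, were lower.

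Lower shares in the lists of DNA methylation and Polycomb genes were not far from the 22.3% of all compared genes. Genes of DNA methylation gave 1 higher and 3 lower of 10, with a median of -0.94 (4 lower and -0.91 without cell 32). The dioxygenase Tet1 had 25.5, 1.35, 1.88, 802 and 23.2 CPM against 330.4 to 1901 CPM (median 854 CPM), so that cell 32 was inside the naive range and the others far below. Tet2 had 118, 8.12, 0.823, 137 and 62.8 CPM, and Tet3 0, 117, 4.70, 20.4 and 2.22 CPM. Of 10 genes of Polycomb repressive complex 2 and its partners 3 were lower and none higher, with a median of -1.38 (4 lower and -1.34 without cell 32). Jarid2 had 374, 14.4, 1.29, 152 and 51.0 CPM, below every naive cell (low 420.4 CPM), and Mtf2 had 31.1, 49.7, 10.7, 357 and 113 CPM against 207 to 1167 CPM (median 618 CPM). Of germline genes 11 of 13 compared were lower, with a median of -3.88 (12 and -4.87 without cell 32), but 7 by differences of mean log2 values, and 5 by medians and with a pseudocount of 10 CPM. Sycp3, of the synaptonemal complex, had at most 0.468 CPM in the 5 cells against 0 to 519 CPM (median 2.67 CPM), and Dazl at most 0.116 CPM against 0 to 446 CPM (median 0.136 CPM): single naive cells carried these means. Taf7l was the exception, with reads in cell 22 alone (144 CPM).

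Of 15 imprinted genes compared 2 were higher and 5 lower, not far from the 8.53% and 22.3% of all compared genes (median 0.14, but -1.13 without cell 3 and -0.18, with 3 higher, without cell 32). Peg3 had 73.0, 576, 44.5, 445 and 220.3 CPM against 0 to 135 CPM (median 0.314 CPM), and Peg10 302, 502, 8.23, 19.0 and 0 CPM. Mest had at most 0.535 CPM against 0 to 334 CPM (median 32.4 CPM), and the transporter gene Slc38a4 0.267, 7.85, 0.353, 0.116 and 0.468 CPM against 0.17 to 511 CPM (median 153 CPM).

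Cyclin D genes differed in opposite directions. Ccnd2 had 1767, 1910.3, 395, 333 and 120.4 CPM, against 0 to 138 CPM (median 0.357 CPM), and Ccnd1 had 0.668, 5.28, 0.235, 4.18 and 0.117 CPM, against 0.312 to 295 CPM (median 121 CPM); their log2 differences were 6.83 and -5.40. Genes of the replication and division phases stayed within 4-fold for the most part: 1 of 18 G1-S genes was higher (Ccne2, 2.03) and 1 lower (E2f1, -4.01), and 1 of 18 G2-M genes was lower (Bub1, -2.54), with medians of -0.83 and -0.67. All 24 ribosomal protein genes and all 18 respiratory chain genes were within 4-fold, with medians of -0.39 and -0.35, close to the -0.50 of all genes. Of 18 glycolysis genes 2 were lower (Pfkp and Pdk1) and the median was -0.06, or 0.20 with TMMwsp scaling. Cholesterol synthesis genes gave 5 lower and none higher of 15, beside 22.3% lower over all compared genes, with a median of -1.05 (6 lower and -1.04 without cell 32). Squalene epoxidase (Sqle) had 0.134, 0.135, 1.53, 0 and 0.702 CPM against 0.153 to 347 CPM (median 54.7 CPM), and lanosterol synthase (Lss) at most 1.29 CPM against 0 to 269 CPM (median 1.57 CPM).

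Counts in the stress lists depended on how the cells were averaged. Of 14 p53 target genes 3 were lower and none higher (median -0.54), not far from the 22.3% lower and the median of -0.50 of all compared genes. By medians 1 was lower and 4 were higher (0.10). Pmaip1 (Noxa) had no read in the 5 cells, at least 62.1-fold below the naive mean of 23.1 CPM, and Perp at most 0.271 CPM against 0 to 211 CPM (median 12.8 CPM). Of 13 immediate early genes 2 were higher and 1 lower, with a median of 0.44 (3 lower without cell 32). By differences of mean log2 values 7 were higher, with a median of 2.21, and by medians 7 were higher, with 2.06. Atf3 had 0.134, 107, 174, 228 and 13.0 CPM against 0 to 173 CPM (median 0 CPM). Of 14 genes of serine synthesis and the ATF4 response 1 was lower, the arginine transporter gene Slc7a3, at 0.401, 0.542, 0.823, 74.1 and 2.81 CPM against 3.43 to 937 CPM (median 327 CPM).

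**Figure D5:**
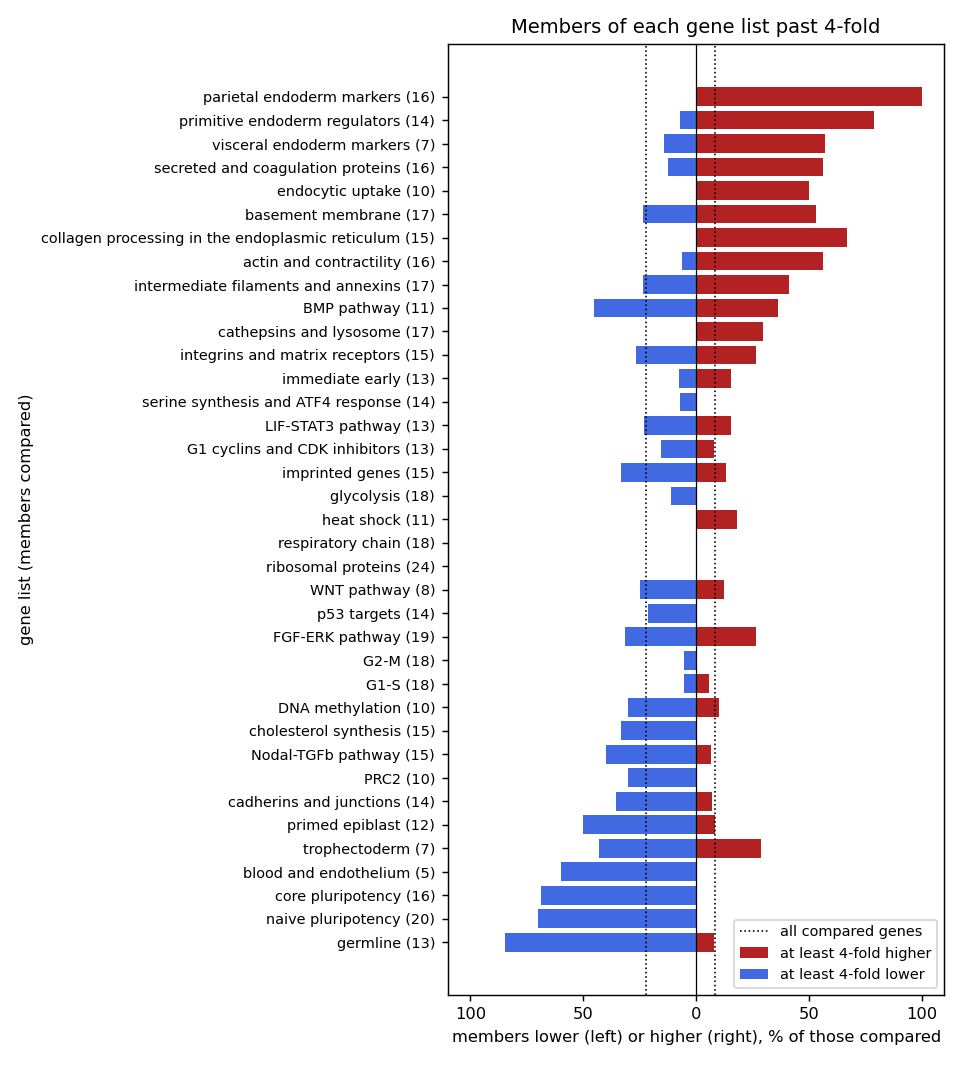
For each list with at least 5 compared genes (number in brackets), bars give the percent of compared members at least 4-fold higher (right) or lower (left) in Gata6+ Pou5f1-low cells. Dotted lines mark 8.53% and 22.3% of all compared genes. The 3 lists added after values were seen are left out, but the lists drawn were also chosen with earlier results of these data known. Of the lists drawn, parietal endoderm markers and primitive endoderm regulators have the longest bars on the higher side, and germline and pluripotency genes on the lower side for these differences of means; the bars include cell 32.

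Summed markers of other cell types stayed below the highest naive cell, except those of definitive endoderm and mesendoderm. Of 12 fibroblast genes none reached the count minimum; the only read-bearing member in the 5 cells was Twist1, at 5.68 CPM in cell 32, and Col1a2, Col3a1, Dcn, Lum and Postn had no read in any of the 40 cells. Summed fibroblast levels were 0 to 5.68 CPM in the 5 cells and 0 to 30.1 CPM in naive cells. Summed neuroectoderm levels were 0 to 0.134 CPM against 0 to 76.0 CPM. Trophectoderm genes summed to 256, 213, 70.3, 6.38 and 120 CPM against 0.935 to 525 CPM (median 62.4 CPM). Their defining factor Cdx2 had no read in either group. Gata2, on that list, was at 191 CPM in cell 22 and at 0 in the other 4. Genes of definitive endoderm and mesendoderm summed to 22.7 to 86.0 CPM against 0 to 62.1 CPM; Sox17 and Foxa2, which primitive endoderm shares, made up nearly all of this in cells 3, 22, 25 and 38, T and Gsc had no read, and cell 32 held 19.3 CPM of Mixl1 and 17.9 CPM of Eomes. Blood and endothelial genes summed to 0.267, 32.8, 4.23, 259 and 19.1 CPM against 0.660 to 459 CPM (median 84.9 CPM), with no read of Ptprc or Tal1.

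The 5 cells were not uniform. Over the 11656 genes, the Pearson correlation of log2(CPM + 1) between pairs of them was 0.591 to 0.656, across genes, which are not independent. No such values are given for pairs of naive cells, so this range does not show whether the 5 cells differed more than naive cells did. Among the 51 genes above all naive cells, cell 3 was the highest of the 5 in 25 and cell 38 in 13, whereas cell 32 was the lowest in 19 and cell 22 in 17. Among the 19 genes below all naive cells, cell 32 was the highest of the 5 in 9. Cell 38 had the most Dab2, Lrp2, Cubn, Ctsh, Lgmn, Clu and Spink3, and cell 3 the most Col4a1, Col4a2, Lama1, Lamb1, Lamc1, Pdpn, Thbd and Tagln. Whether a capture site held more than 1 cell was not tested.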

How the data were processed

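RNA-seq libraries of 48 single J1 ES cells were each read on 2 lanes. The authors deposited read counts for 23284 genes, whole and not normalized. Per the submitters' processing notes, which give no role or order, the build was mm9 and the tools were featureCounts, STAR 2.3.1z12 and Subread 1.4.5-p1. How reads that match several genes were counted is not given in the sources used here, and the kit does not mark strand. Lanes of a cell agreed within sampling noise by a chi-square test on counts (index 0.964 to 1.03 in 40 cells, 0 cells with an unadjusted p under 0.05), so they were summed and counted once. A further 25 rows had date-like names (0.660% of reads) and were kept.

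CPM is counts divided by the cell's total in genes, times 1000000, with no further scaling. Genes needed a mean of 10 reads over the 40 cells. The difference is log2 of the ratio of mean CPM + 1, and 4-fold was the size called. Named genes are Col4a1 and Dab2, the 20 largest differences on each side among 4-fold genes whose cells do not overlap, and up to 4 members of each list with the largest absolute difference; other members are given by value. The members and the 40 gene lists were chosen with earlier results of these data known, and 3 further lists after seeing values. No doublet caller was run and no cell was removed. Where a group had no read, a floor of 3 reads per library set the bound on a fold. Python 3.11.15, pandas 2.3.3 and scipy 1.17.1 were used, with edgeR 4.0.16 for TMMwsp factors only. The comparison was also run on simulated data, with changes planted only in well counted genes. That run does not cover changes in genes at low levels, and its outcome is not given here. Alternatives were other scalings, pseudocounts, filters, centres and fold sizes, single lanes, thinned counts, other naive cells, and each Gata6+ Pou5f1-low cell left out. Some members of the gene lists are counted in them but not reported here by name.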

Additional observations from a re-analysis of the deposited data

Results flagged for a closer look

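Within the 5 Gata6+ Pou5f1-low cells, 28 of 140 named genes and cell measures had 1 cell whose gap to the nearest other cell was over 0.71 of the whole range of log2(CPM + 1). The 5% rate usual for this limit assumes independent, normally spread values. Genes here were picked by size, and some had reads in 1 cell only, so the 28 cannot be set against that rate. A further 33 genes with under 5 reads in every one of the 5 cells were not examined. Cell 32 was the cell apart in 15 of them. It was the highest of the 5 for Dppa4 (29.4 CPM), Sox2 (17.3 CPM), Gdf3 (93.3 CPM), Fgf4 (8.70 CPM), Slc7a3 (74.1 CPM), Pecam1 (38.7 CPM), Ddit3 (189.8 CPM), Eomes (17.9 CPM), Mixl1 (19.3 CPM), Id2 (7.31 CPM), Id3 (11.0 CPM), Fgfr1 (5.22 CPM) and Gm10324 (0.580 CPM), and the lowest for Gata4 (16.0 CPM) and Cldn6 (2.32 CPM). Cell 22 was the highest for Gata2 (191 CPM), Afp (72.7 CPM), Tcf7 (26.3 CPM), Slc38a4 (7.85 CPM) and Grhl2 (7.04 CPM), and the lowest for Anxa5 (0.271 CPM) and Lamp2 (0.135 CPM). Cell 25 was the highest for Trib3 (26.4 CPM), Idi1 (12.2 CPM), Dag1 (3.88 CPM), Gbx2 (1.76 CPM) and Des (1.29 CPM), and cell 38 for Acvr2b (4.45 CPM).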

How the results depend on the processing

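Each cell had at least 4408953 reads, the cells numbered 5 and 35, and the labels named no separate cultures. Which of these limits the results was not tested. Counts of genes at least 4-fold higher and lower were 994 and 2595. They were 416 and 406 with a pseudocount of 10 CPM, 637 and 1728 with a minimum mean of 50 reads, 2047 and 4602 at 2-fold, and 475 and 1209 at 8-fold. The lower count was 1256 for differences of mean log2 values and 1670 for differences of medians. The 51 genes above and 19 below all naive cells became 145 and 143 against the 7 naive cells with 0 Gata6 reads (fewer cells to overlap with), and 81 and 33 where 1 naive cell may overlap. Leaving out each of the 5 cells in turn gave 58 to 80 and 20 to 60. The cause of the changes with pseudocount and centre was not tested. TMMwsp scaling, totals without the leading genes, single lanes and thinning kept all 4 counts within 1.5 times. The difference in median genes detected, -1009, was -1091 to -729 under its alternatives. For 170 named genes 2380 differences were recomputed. Changes of sign were counted only for the 140 of these genes past 4-fold, and 8 values changed sign there. Leaving out single cells moved Afp from -0.015 (without cell 22) to 4.25 and Gata2 from -2.17 (without cell 22) to 3.44. The same step moved Ier3 from -0.17 (without cell 3) to 2.35. Against the 7 naive cells, Gbx2 was at 0.40, H19 at 0.11, Krt7 at 0.076 and Rhox9 at 0.17. By medians Rhox9 was at 0.18. List counts moved too: for differences of medians, lower members went from 4 to 2 for basement membrane, from 4 to 0 for intermediate filaments and annexins and from 1 to 4 for G2-M genes; with a pseudocount of 10 CPM, from 6 to 2 for Nodal pathway and for primed epiblast genes. No paired analysis was possible because all cells form 1 group and no test was made.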

Other observations

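Some genes above every naive cell have not been described yet. Fabp3, a fatty acid carrier of heart muscle, had 2415, 1564, 1608, 1961 and 1286 CPM against 9.67 to 575 CPM (median 92.3 CPM). B2m, the light chain of MHC class I, was even over the 5 cells at 413, 299.8, 284, 315 and 461 CPM, against 0.139 to 107 CPM (median 30.8 CPM). The hypoxia-inducible factor gene Epas1 (HIF-2 alpha) had 626, 520.5, 141, 124 and 149 CPM with a naive high of 119 CPM, and the growth factor gene Nrg1 (neuregulin 1) 215, 146, 214, 80.5 and 762 CPM with a naive high of 32.1 CPM. Adam10, a sheddase, had 635, 437, 539.9, 210.3 and 389 CPM against 0.153 to 166 CPM (median 31.5 CPM). Msl3, a subunit of the male-specific lethal complex, had 495, 344, 183, 106 and 229 CPM against 0 to 42.9 CPM (median 0.467 CPM), and Ets1, a transcription factor, 12.0, 37.5, 184, 1.16 and 4.91 CPM with at most 0.774 CPM in a naive cell. These genes were picked from the 51 after their values were seen.

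Of the reproductive homeobox genes on the X chromosome, a list of 8 drawn up after seeing values, 4 were compared. Rhox6 had 86.6, 65.4, 13.4, 10.2 and 43.5 CPM against 0 to 91.9 CPM (median 0 CPM), while Rhox9 and Rhox13 were near 0 in the 5 cells and had naive highs of 119 and 69.2 CPM.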
